A study of Homo sapiens with 16 samples.

Results

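The nuclear-coded respiratory chain genes were taken from the count table by gene symbol: every row whose symbol opens with NDUFA, NDUFB, NDUFC, NDUFS or NDUFV and a digit, with UQCR, with COX and a digit from 4 to 8, or with ATP5, and the rows SDHA, SDHB, SDHC and SDHD. The rule found 92 of 25221 rows. Of these, 74 held subunits that most tissues make, 36 of complex I, 4 of complex II, 8 of complex III, 11 of complex IV and 15 of complex V (ATP synthase). A further 6 rows were tissue isoforms of complex IV, and 12 were other transcripts that share the symbols. The genes were measured in 16 libraries from 2 human leukemia lines, MOLM13 (acute myeloid leukemia) and K562 (chronic myeloid leukemia in blast crisis). In each line 4 libraries were treated with DMSO and 4 with Ro 08-2750 (Ro), a small molecule that blocks RNA binding by MUSASHI proteins, at 20 µM, and all were collected after 4 h. The 4 groups are therefore MOLM13 DMSO, MOLM13 Ro, K562 DMSO and K562 Ro, in unmodified cells, and the titles number the libraries of each line as pairs 1 to 4. Each line derives from a single patient, so a difference between MOLM13 and K562 is one between these lines and not between leukemia types. The labels do not say that the replicates were separate cultures, so p-values measure the spread between these libraries, which may be technical. Levels are CPM, counts scaled to a common library size. The libraries were read at the 3' end of transcripts, where counts do not grow with transcript length. Not every gene was read, as set out below, so rankings of genes or complexes by level hold for the counts in this table.

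The respiratory chain sits in the inner membrane of mitochondria. Complexes I and II pass electrons from NADH and succinate to coenzyme Q, complex III passes them on to cytochrome c, and complex IV hands them to oxygen; complexes I, III and IV pump protons as they do so, and complex V lets the protons flow back to make ATP. Complexes I, III, IV and V are mosaics of a few proteins coded in mitochondrial DNA and many coded in the nucleus, whereas complex II is coded in the nucleus alone. Nuclear subunit genes are known to be switched on together by shared factors, among them NRF1, GABP and YY1, and leukemia cells are known to vary in how far they rely on respiration. The table held 0 rows for genes coded in mitochondrial DNA, which were not analysed here.

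The libraries held 3143129 to 43571060 counts, and the shallowest were K562 DMSO replicates 2 and 4, with 3143129 and 4383241 counts. The locus LOC100507412 took 4.11 to 24.3% of the counts in MOLM13 and 0.269 to 6.44% in K562. Line markers separated the lines as labelled: FLT3 stood at 141 to 183 CPM in MOLM13 and 1.67 to 4.14 CPM in K562, and HBG2, a fetal globin, at 2.38 to 5.59 CPM in MOLM13 and 1008.1 to 2201.8 CPM in K562. CD14, a monocyte marker, was at most 0.298 CPM in MOLM13 and 0.35 CPM in K562, so it did not separate the lines. In MOLM13 the pair numbered 4 stood apart in respiratory chain mRNA, and in K562 so did Ro replicate 1, and results that rest on them are given with and without them.

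Not every subunit gene could be read from this table. Of the 74 subunit rows, 11 had at most 3 counts in every library, although all cells that respire need them. Of these 11, 5 were listed at 0 throughout: NDUFA7, NDUFA11 and NDUFB8 of complex I, UQCR11 of complex III and ATP5H, a stalk subunit of ATP synthase. The other 6 were SDHD, a membrane anchor of complex II, NDUFC2, NDUFV2 and NDUFA13 of complex I, COX8A of complex IV and ATP5J2 of complex V. By contrast, the lowest maximum among the remaining 63 subunit rows was 92 counts. At the end of the longest annotated transcript (its last 400 exonic bases, GENCODE release 29), an exon of another gene on the same strand lay over 6 of the 11, or 54.5%, and over 4 of the other 63, or 6.35%. Over all protein-coding genes, the shares were 10.3% of 2984 genes at 3 counts or fewer and 2.98% of 16019 genes above that. The 4 of the 63 were ATP5G3, ATP5O, COX6A1 and COX7C, whose levels are given below. Whether the counting step dropped reads that fall in 2 genes was not tested, for the 11 or for these 4. No value below speaks of the levels of the 11 genes, which enter the summed levels at 0 or near it. Of the 92 rows, 70 passed the filter on low counts in MOLM13 and 69 in K562, among them the same 63 subunits, and 22 passed in neither line.

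The promoters are shown as background, since these are the stretches that shared factors are known to read. Whether such factors had a part in any difference between these libraries was not tested. RefSeq held a promoter, 250 bases before to 50 bases after the start, for 62 of the 74 subunit rows (build GRCh38.p14), and 3 words were searched on both strands: CGCATGCG for NRF1, CCGGAAGT for GABP and AAGATGGC for YY1. None of the words lies within another, and the first reads the same on both strands. The NRF1 word was found in 10 subunit promoters, or 16.1%, against 2.19% of 27305 promoters and 3.6% of the 12151 promoters of genes tested in K562. The GABP word was found in 9, or 14.5%, against 4.44% and 7.37%, and the YY1 word in 11, or 17.7%, against 3.03% and 4.64%. Together 27 of the 62, or 43.5%, held at least 1 word. Shown here, with the word in capitals, are 5 subunit promoters with a word whose genes differed between the lines below, 1 or more for each word: UQCRH (chr1:46303448-46303747, plus strand, GABP read on the reverse strand), COX5B (chr2:97645812-97646111, plus strand, GABP at 2 places), NDUFA8 (chr9:122159730-122160029, minus strand, NRF1), ATP5G2 (chr12:53676034-53676333, minus strand, NRF1) and SDHB (chr1:17053983-17054282, minus strand, YY1).
UQCRH: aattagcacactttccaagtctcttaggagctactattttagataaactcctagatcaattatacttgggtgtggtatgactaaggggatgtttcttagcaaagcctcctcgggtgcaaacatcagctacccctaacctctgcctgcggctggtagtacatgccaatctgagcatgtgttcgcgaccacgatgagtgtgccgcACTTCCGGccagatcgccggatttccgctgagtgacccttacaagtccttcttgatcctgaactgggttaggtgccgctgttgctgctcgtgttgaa
COX5B: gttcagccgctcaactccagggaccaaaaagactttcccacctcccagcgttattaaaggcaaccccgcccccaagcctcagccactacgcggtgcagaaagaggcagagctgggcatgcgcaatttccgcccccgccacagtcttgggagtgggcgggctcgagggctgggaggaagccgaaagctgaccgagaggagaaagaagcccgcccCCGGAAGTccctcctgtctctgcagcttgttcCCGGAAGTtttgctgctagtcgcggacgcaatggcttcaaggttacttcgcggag
NDUFA8: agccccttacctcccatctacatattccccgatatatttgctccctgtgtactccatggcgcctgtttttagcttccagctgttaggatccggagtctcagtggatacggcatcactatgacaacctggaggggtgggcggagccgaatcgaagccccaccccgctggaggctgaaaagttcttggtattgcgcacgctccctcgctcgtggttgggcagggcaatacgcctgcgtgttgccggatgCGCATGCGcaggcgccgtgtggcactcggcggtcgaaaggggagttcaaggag
ATP5G2: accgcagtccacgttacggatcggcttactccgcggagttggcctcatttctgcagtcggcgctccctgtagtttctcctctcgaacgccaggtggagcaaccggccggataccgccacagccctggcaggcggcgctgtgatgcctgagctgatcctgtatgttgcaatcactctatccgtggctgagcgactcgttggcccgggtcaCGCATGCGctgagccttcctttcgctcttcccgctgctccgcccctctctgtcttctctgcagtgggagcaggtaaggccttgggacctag
SDHB: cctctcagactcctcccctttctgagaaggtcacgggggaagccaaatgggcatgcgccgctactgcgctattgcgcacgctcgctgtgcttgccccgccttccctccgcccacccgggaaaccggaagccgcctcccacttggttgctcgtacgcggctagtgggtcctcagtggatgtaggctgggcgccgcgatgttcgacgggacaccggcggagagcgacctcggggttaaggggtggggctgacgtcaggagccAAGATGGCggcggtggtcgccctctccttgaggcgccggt
A match of letters is a description of the window and not evidence of binding. The YY1 word holds the letters ATG. It lay after the start in NDUFA3, NDUFA6, NDUFA7, NDUFA9, NDUFS4, NDUFS7, SDHB, UQCRC1 and ATP5O. Whether these matches are part of a coding start was not tested. Of 21 tested genes with a word, 11 were higher in K562 than in MOLM13 with DMSO and 1 was lower (edgeR adjusted p below 0.05, as for 20.3 and 21.1% of all genes tested), and of 32 tested genes without one, 13 were higher and 0 lower. The 2 groups' median log2 differences were 0.65 and 0.49.

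Respiratory chain mRNA made up a larger part of the library in K562 than in MOLM13. The subunit rows summed to 11629.9, 10231.9, 11919.2 and 15858.2 CPM in MOLM13 DMSO replicates 1 to 4, and to 20146.2, 21095.6, 15271.9 and 16596.1 CPM in K562 DMSO. The ranges overlapped only through MOLM13 replicate 4, which exceeded K562 replicate 3. Of the counts as deposited, before scaling, the subunits took 0.926 to 1.38% in MOLM13 DMSO and 1.82 to 2.31% in K562 DMSO, ranges that did not overlap.

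By complex, the summed level was highest for ATP synthase and lowest for complex II in each of the 4 groups. The complexes differ in how many subunits were read, with 30, 3, 7, 10 and 13 tested in complexes I to V. These sums are therefore not levels of whole complexes. With DMSO, complex V summed to 4747.5 ± 897 CPM in MOLM13 and 7493.4 ± 873 CPM in K562 (SD, n = 4), 1.58 times as much and without overlap. Complex III rose from 1742.5 ± 255 to 2875.3 ± 360 CPM, 1.65 times, also without overlap. Complex I stood at 3222.3 ± 756 CPM in MOLM13 and 4623.6 ± 882 CPM in K562, 1.43 times. Its ranges overlapped, since MOLM13 replicate 4 reached 4317 CPM while the other 3 MOLM13 libraries lay between 2582.6 and 3028.4 CPM, below the lowest K562 value of 3837.8 CPM. Complex IV (2457.9 ± 460 against 2995.3 ± 713 CPM, 1.22 times) and complex II (240 ± 55.3 against 290 ± 59.1 CPM, 1.21 times) overlapped also without that replicate. These sums have no test, because their members were chosen together.

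**Figure D1:**
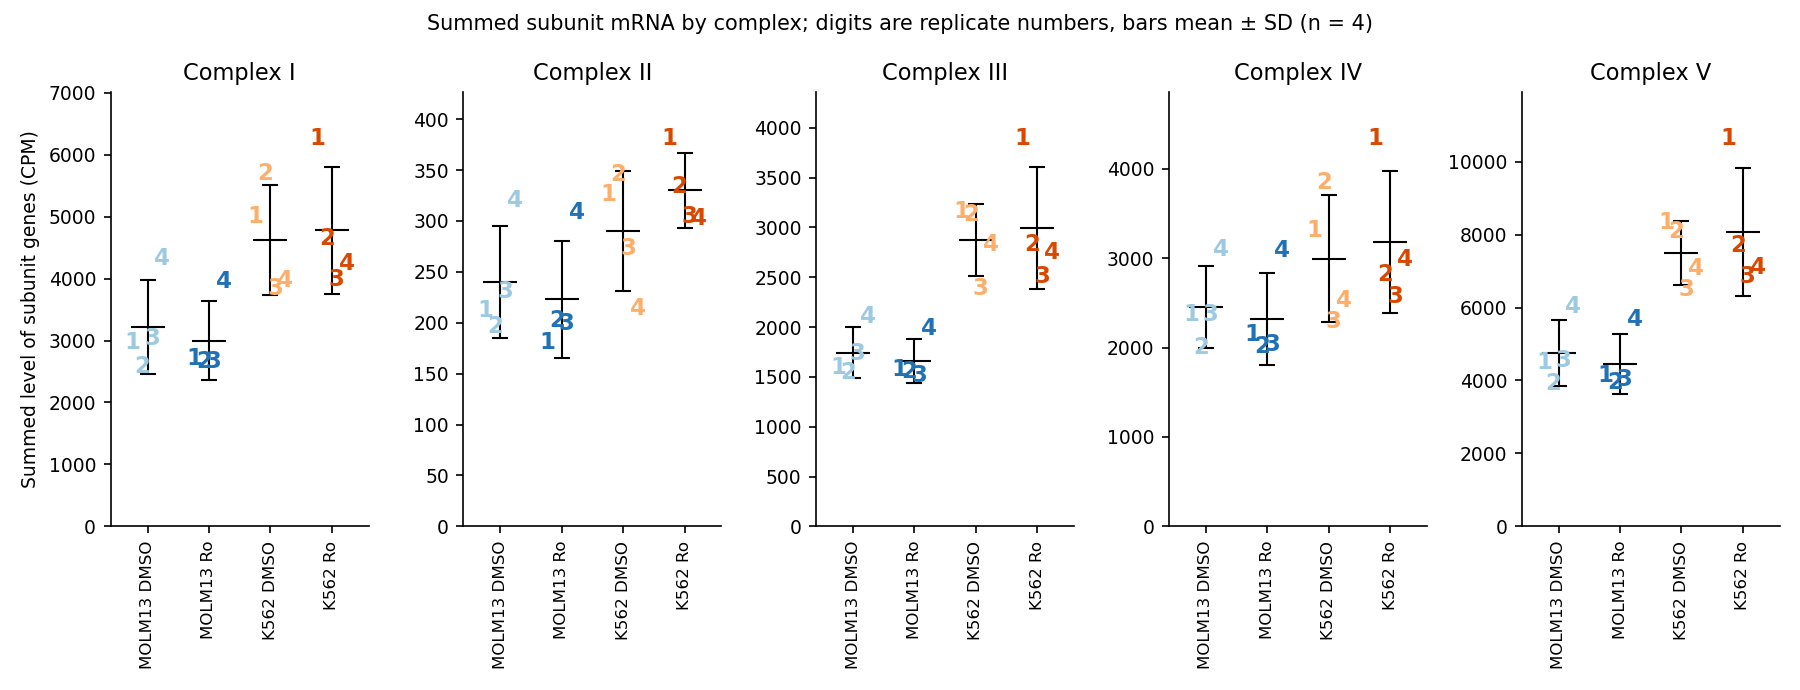
Summed CPM of subunit genes of complexes I to V (y axis, from 0, own scale per panel) in the 4 groups (x axis); each digit is 1 library, numbered by replicate, and the horizontal bar and whiskers are mean ± SD (n = 4). In each complex, replicate 4 is the highest library of both MOLM13 groups and replicate 1 the highest of K562 Ro.

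The member with the highest mean over the 16 libraries differed in level from complex to complex. In complex I it was NDUFS6, an accessory subunit near the NADH-binding arm, at 504 ± 97.3 CPM in MOLM13 DMSO and 718 ± 140 CPM in K562 DMSO. In complex II it was SDHC, a membrane anchor, at 113 ± 9.82 and 100 ± 21 CPM, while SDHB led in K562 DMSO at 103 CPM. In complex III the hinge protein gene UQCRH reached 626 ± 59.3 and 1560.4 ± 192 CPM, and in complex IV COX6C stood at 617 ± 166 and 490 ± 148 CPM, below COX7C, at 600 CPM, in K562 DMSO. ATP5G3, which codes the subunit c that forms the rotor ring of ATP synthase, had 740 ± 173 CPM in MOLM13 and 2500.2 ± 290 CPM in K562. It was the highest of all members in K562, whereas in MOLM13 ATP5L, a small membrane subunit, stood above it at 1051.7 ± 211 CPM. Of these 5, UQCRH and ATP5G3 did not overlap between the lines, and the other 3 did.

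Members rose and fell together between libraries of 1 group. In MOLM13 DMSO, replicate 4 was the highest library for 59 of 70 members tested, or 84.3%, whereas it was the highest for 38.3% of all genes tested. In MOLM13 Ro it was the highest for 63 of 70, or 90.0%, against 37.4%. In K562 Ro, replicate 1 was the highest for 62 of 69, or 89.9%, against 32.4%, and in K562 DMSO, replicate 2 was the highest for 43 of 69, or 62.3%, against 32.4%. In both libraries of MOLM13 pair 4 the raised members included SDHA, the flavoprotein of complex II, at 151 and 134 CPM against 60.2 to 68.8 CPM in the other 6 libraries. Some members went the other way, among them NDUFA9 and the low member NDUFC1, which was lowest in pair 4, at 1.2 and 1.3 CPM against 2.28 to 4.39 CPM. LOC100507412 took 4.11 and 6.29% of counts in MOLM13 pair 4 and 9.16 to 24.3% in the other pairs, and mitochondrial ribosomal protein genes summed to 5686.2 and 5229.2 CPM there against 3262.8 to 4293.1 CPM in the others. The part of either in the respiratory chain levels was not tested.

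**Figure D2:**
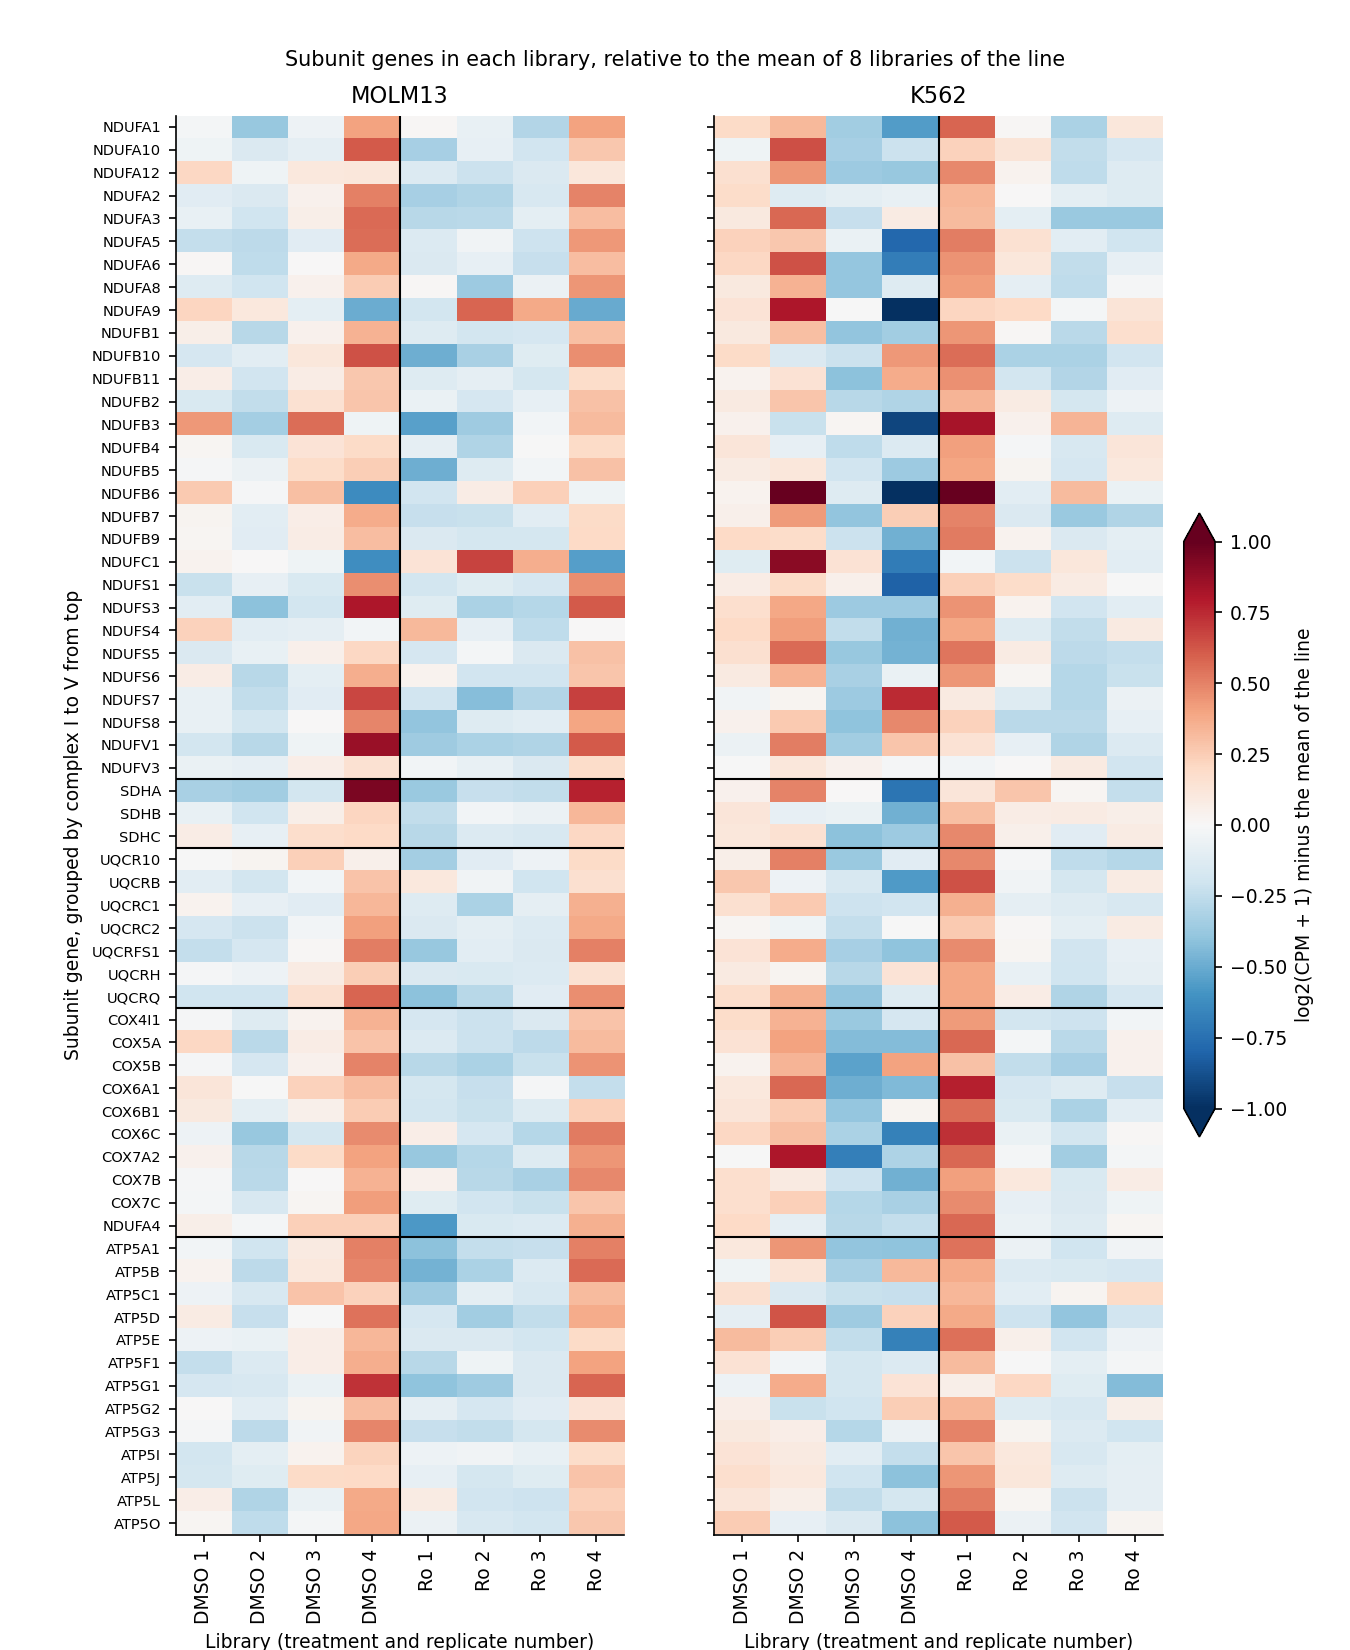
log2(CPM + 1) of 62 of the 63 subunit genes tested (rows, complex I at the top to complex V) in each library (columns), minus the gene's mean over the 8 libraries of its line; red is above and blue below that mean, and colour ends at 1 either way. DMSO and Ro replicate 4 are red across most rows in MOLM13 and Ro replicate 1 across nearly all rows in K562.

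With DMSO, 27 of 70 members tested were higher in K562 than in MOLM13 and 4 were lower (edgeR quasi-likelihood test, adjusted p below 0.05). Over all 15268 genes tested, 20.3% were higher and 21.1% lower, and among the members tested 38.6 and 5.71% were. Their median log2 difference was 0.47, and relative to the 100 genes outside the set nearest in mean level to each member it was 0.53. All K562 DMSO libraries lay above all MOLM13 DMSO libraries for 23 members, or below them for 4, where 19.0 and 20.5% of all genes did so. In bulk libraries, a larger share of cells that make an mRNA and more of it per cell cannot be told apart. Of the 31 called members, 21 kept the call under each of 13 alternatives (other tools, scaling and filter, the replicate block, and each library left out in turn). The other 10 lost it under 2 to 10 of these: UQCRB, ATP5I, COX7B, COX5A, COX6A1, ATP5O, ATP5C1, NDUFV1, NDUFB10 and NDUFB6. Each of the 8 libraries, when left out, cost 1 to 9 of these calls. The 13 do not include 4 fits with the block and 1 replicate number left out. Those fits called 6 to 43 members higher, so calls among the 21 were lost there too. Without MOLM13 replicate 4 there were 37 higher and 3 lower members, and with K562 DMSO replicates 1 and 3 alone, the 2 deep ones, 25 higher and 3 lower.

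Complex I had 11 of 30 tested subunits higher in K562 and 0 lower, or 36.7 and 0.0%, where 20.3 and 21.1% of all genes were. Its median log2 difference was 0.5. NDUFV3, a small accessory subunit of the NADH-binding arm, was the firmest: 31.3, 30.9, 34.3 and 36.5 CPM in MOLM13 DMSO and 83.3, 90.4, 86.1 and 83.2 CPM in K562 DMSO. The groups lay far apart, and the log2 difference was 1.36 ± 0.18 (SE; edgeR adjusted p = 4.0e-05). NDUFS8, an iron-sulfur subunit of the core, differed by 1.37 ± 0.24 (adjusted p = 0.00048), and NDUFA5, an accessory subunit, by 1.55 ± 0.29 (adjusted p = 0.00062). NDUFV1, the subunit that takes electrons from NADH, had 54.3, 50.6, 60.0 and 113 CPM in MOLM13 and 118, 176, 96.3 and 149 CPM in K562. Its groups overlapped through MOLM13 replicate 4 alone, and the difference was 0.94 ± 0.29 (adjusted p = 0.0189). The other called subunits were NDUFA1, NDUFA2, NDUFA8, NDUFB2, NDUFB6, NDUFB10 and NDUFS5, from 0.79 for NDUFB10 to 1.94 for NDUFB6. NDUFB6 was low and uneven, at 5.06, 3.99, 5.21 and 2.26 CPM in MOLM13 and 14.3, 35.7, 12.7 and 1.58 CPM in K562. Its groups overlapped, and the SE was 0.59. NDUFS1, an iron-sulfur subunit of the same arm as NDUFV1, did not pass, at a log2 difference of −0.45 ± 0.26 (adjusted p = 0.184). The 6 core subunits tested had 2 calls, NDUFV1 and NDUFS8, or 33.3%, and the 24 accessory subunits had 9, or 37.5%.

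In complex II, SDHB was the member called of the 3 tested, or 33.3%, where 20.3% of all genes were called higher. This iron-sulfur subunit had 38.9, 35.6, 42.8 and 47.9 CPM in MOLM13 DMSO and 121, 105, 106 and 79.4 CPM in K562 DMSO. All K562 values lay above all MOLM13 values, with a log2 difference of 1.31 ± 0.21 (edgeR adjusted p = 0.00018). Its partners did not pass: SDHA, which oxidises succinate, differed by −0.004 ± 0.33 (adjusted p = 0.995) and the anchor SDHC by −0.17 ± 0.21 (adjusted p = 0.546). SDHD, the other anchor, had at most 1 count in any library.

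Complex III had 3 higher and 1 lower of 7 tested, or 42.9 and 14.3%, where 20.3 and 21.1% of all genes were. UQCRH stood at 591, 575, 631 and 708 CPM in MOLM13 DMSO and at 1654.5, 1589.3, 1283.1 and 1714.6 CPM in K562 DMSO, with no overlap and a log2 difference of 1.31 ± 0.21 (edgeR adjusted p = 0.00016). The small subunit gene UQCRQ differed by 1.3 ± 0.25 (adjusted p = 0.00101) and the core protein gene UQCRC2 by 0.98 ± 0.21 (adjusted p = 0.00213), whereas the other core protein gene, UQCRC1, differed by 0.35 ± 0.2 and did not pass (adjusted p = 0.196). UQCRFS1, the Rieske iron-sulfur protein that passes the electron on, differed by −0.073 ± 0.25 (adjusted p = 0.847). UQCRB, a subunit near the coenzyme Q site, was lower in K562, at 504, 403, 373 and 282 CPM against 551, 520, 580 and 721 CPM. That difference was −0.61 ± 0.23 (edgeR adjusted p = 0.0482), and it did not pass in 10 alternative settings, where adjusted p ran from 0.0545 to 0.112.

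Complex IV had 5 of 10 tested subunits higher and 0 lower, where 20.3 and 21.1% of all genes were. The 5 subunits were COX5A and COX5B, both on the matrix side of the complex, COX6A1, COX7B and NDUFA4, a protein first assigned to complex I. NDUFA4 had 65.0, 61.2, 73.6 and 73.4 CPM in MOLM13 DMSO and 159, 130, 114 and 117 CPM in K562 DMSO, without overlap, at a log2 difference of 0.92 ± 0.2 (edgeR adjusted p = 0.0021). COX5A differed by 0.72 ± 0.25 (adjusted p = 0.031) and COX5B by 0.92 ± 0.25 (adjusted p = 0.01). COX6A1 was called on very low levels, 1.38 ± 0.228 against 3.0 ± 1.45 CPM. The abundant subunit genes COX4I1 (0.24 ± 0.23), COX6C (−0.34 ± 0.27) and COX7A2 (0.019 ± 0.3) did not pass, with adjusted p of 0.431, 0.344 and 0.97.

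Complex V had 6 higher and 1 lower of 13 tested, or 46.2 and 7.69%, where 20.3 and 21.1% of all genes were. In the catalytic head, 1 of 5 subunits passed, or 20.0%, near the share of all genes. It was ATP5C1, the central shaft, which differed by 0.62 ± 0.2 (edgeR adjusted p = 0.0238). ATP5A1 and ATP5B, which form the hexamer that binds nucleotides, differed by −0.085 ± 0.25 and 0.26 ± 0.23 (adjusted p = 0.824 and 0.399). In the membrane part and stalk, 5 of 8 were higher and 1 lower, or 62.5 and 12.5%. The head and the membrane part were not tested against each other. ATP5G3 had 697, 588, 687 and 989 CPM in MOLM13 DMSO and 2743.4, 2688.3, 2104.3 and 2464.9 CPM in K562 DMSO, the smallest p of all members, at 1.75 ± 0.23 (adjusted p = 3.9e-05). The stalk genes ATP5F1 and ATP5J differed by 0.92 ± 0.21 and 0.94 ± 0.21, and ATP5I and ATP5O by 0.56 ± 0.2 and 0.65 ± 0.23. ATP5G2, which codes the same mature subunit c as ATP5G3, was lower in K562.

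**Figure D3:**
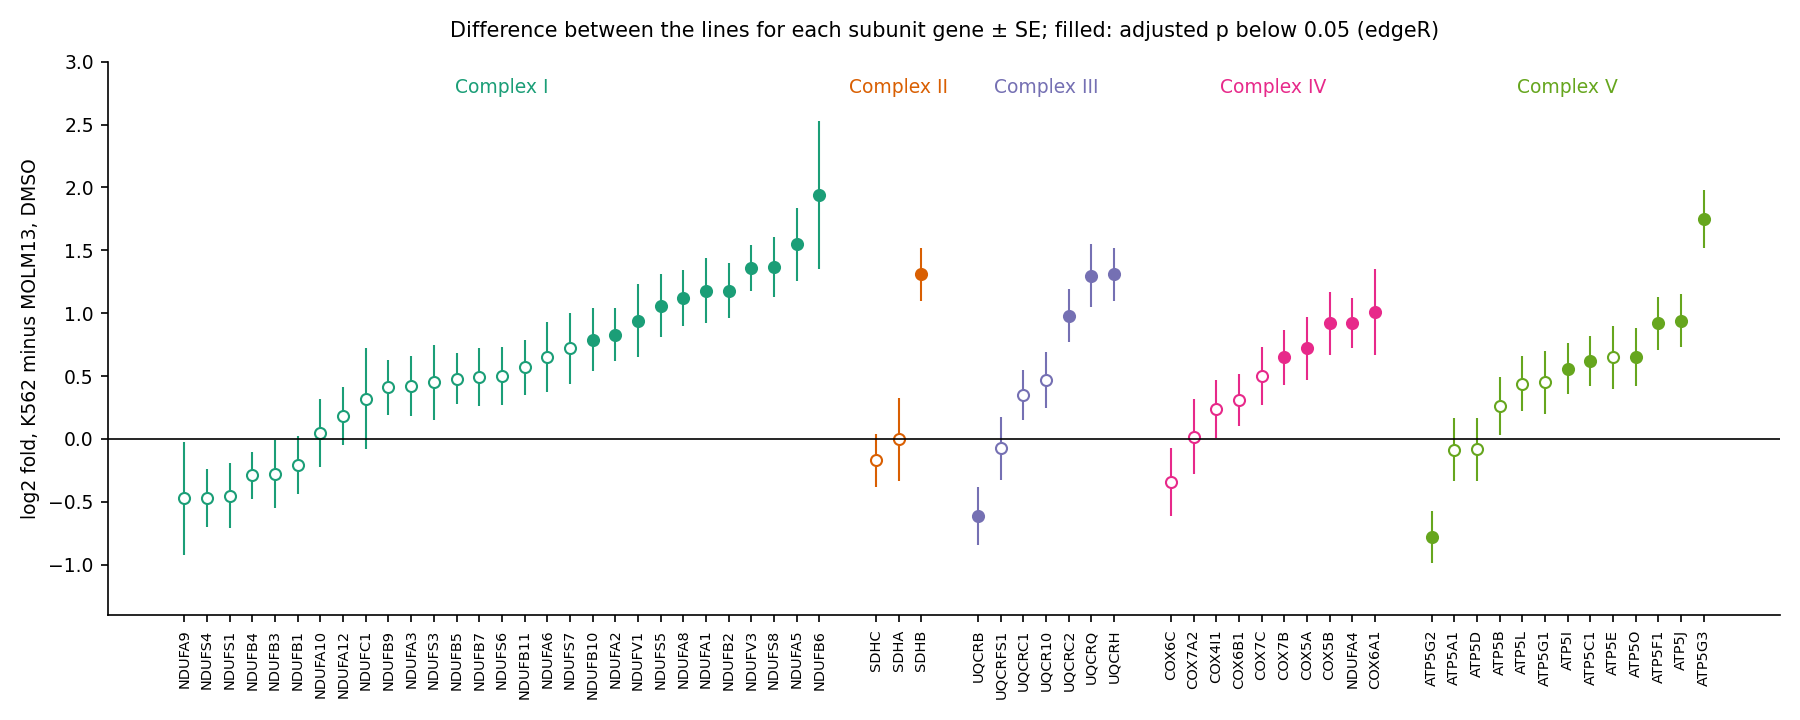
log2 difference, K562 minus MOLM13 with DMSO, ± SE (y axis) for 62 of the 63 subunit genes tested (x axis), in order of size within complexes I to V; filled points have an edgeR adjusted p below 0.05. SDHB, UQCRH and ATP5G3 are the highest points of complexes II, III and V, and ATP5G2 and UQCRB are the filled points below 0.

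Subunit c showed how the lines differed within 1 protein. ATP5G1, ATP5G2 and ATP5G3 code precursors that are cut to the same mature protein. In MOLM13 DMSO, ATP5G2 held 44.8, 45.9, 45.1 and 39.6% of their joint counts and ATP5G3 held 41.9, 39.2, 40.9 and 42.7%. In K562 DMSO, ATP5G2 held 13.5, 11.1, 14.2 and 16.0% and ATP5G3 held 77.0, 76.0, 74.7 and 72.6%. Neither share overlapped between the lines, and MOLM13 replicate 4 stayed with its group in both. ATP5G1 held 15.0 ± 1.9% in MOLM13 and 11.2 ± 1.37% in K562 (SD, n = 4). With Ro the shares of ATP5G3 were 40.5 to 45.1% in MOLM13 and 75.2 to 79.3% in K562. As a level, ATP5G2 stood at 745, 688, 757 and 918 CPM in MOLM13 DMSO and 480, 393, 401 and 545 CPM in K562 DMSO, with no overlap and a log2 difference of −0.78 ± 0.21 (edgeR adjusted p = 0.00885).

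**Figure D4:**
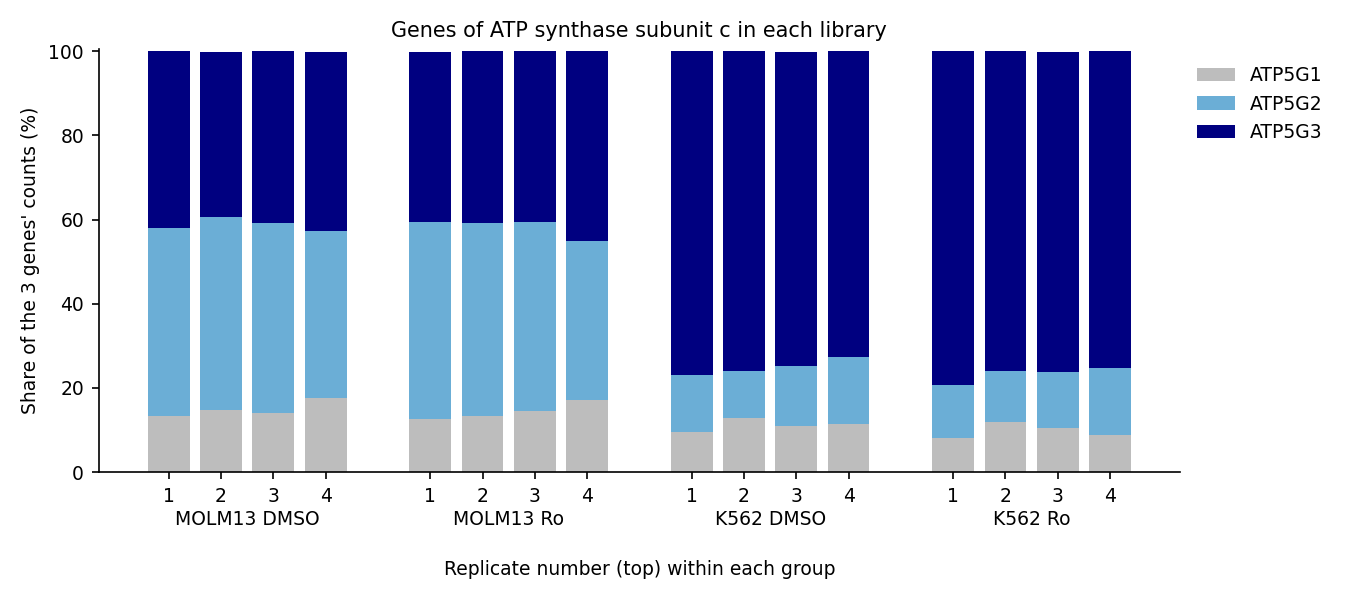
Share of the joint counts of ATP5G1, ATP5G2 and ATP5G3 (y axis, %) in each library (x axis, replicates 1 to 4 of the 4 groups). ATP5G3 takes 39.2 to 45.1% in the MOLM13 libraries and 72.6 to 79.3% in the K562 libraries.

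The other sets of related genes had 1 leading member in both lines. NDUFA4 held 97.0 to 97.8% of its counts with NDUFA4L2 in MOLM13 DMSO and 99.6 to 99.9% in K562 DMSO. NDUFA4L2, a paralog known from hypoxic cells, had 1.44, 1.42, 1.93 and 2.26 CPM in MOLM13 DMSO and 0.134, 0.291, 0.4 and 0.175 CPM in K562 DMSO. It was lower in K562 without overlap, at a log2 difference of −2.88 ± 0.43 (edgeR adjusted p = 0.0001), on 10 to 79 counts in MOLM13 and 1 to 10 counts in K562. COX4I1 held at least 99.9% of its counts with COX4I2, a lung isoform, in each of the 16 libraries. COX6B1 held at least 99.8% with COX6B2, a testis isoform, and COX7B 94.8 to 99.3% with COX7B2 over the K562 DMSO libraries. COX7A2 held 71.1 to 74.0% in MOLM13 DMSO and 64.8 to 77.5% in K562 DMSO with COX7A2L, an assembly factor of supercomplexes, and the muscle isoform COX7A1 was at or near 0. COX6A2 and COX8C, muscle and testis isoforms, were listed at 0, so no fold was formed for them. UQCRHL, an intronless copy of UQCRH, differed like its parent, at 1.58 ± 0.28 (adjusted p = 0.00044). The copies are nearly identical, so the split of reads between UQCRH and UQCRHL is uncertain.

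Among rows that are not subunits, the factor gene ATP5S (now named DMAC2L) was lower in K562, at 16.3, 17.7, 15.9 and 17.2 CPM against 23.5, 27.0, 31.9 and 41.5 CPM in MOLM13. Its groups did not overlap, and the log2 difference was −0.9 ± 0.22 (edgeR adjusted p = 0.00477). Its relative ATP5SL (DMAC2), an assembly factor of complex I, and COX7A2L differed by −0.0068 ± 0.22 and 0.0061 ± 0.22 (adjusted p = 0.985 and 0.986). The 2 antisense RNA rows, the microRNA rows that carry the symbol NDUFS8, the copy ATP5L2 and the readthrough row ATP5J2-PTCD1 were listed at 0. Whether the counting used strand is not given in the sources used here.

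The next comparison asked whether Ro changed these genes in MOLM13 within 4 h. None of the 70 members tested passed (edgeR, where 1 member, lower, had an unadjusted p below 0.05; DESeq2 also called 0), as was so for 0.0% of all 15031 genes tested. With the pair as a block, 0 members passed, where 0.938% of all genes were called higher and 1.17% lower. At an unadjusted p below 0.05 in the blocked fit, 1 member was higher and 14 were lower, where 7.55 and 9.65% of all genes were. The median log2 change of the members was −0.088, with 54 of 70 below 0, and the median of genes of like level was −0.044. Relative to genes of like level the median was −0.030, with 27 of 70 above 0.

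By pair, the MOLM13 members did not move alike. Their median log2 changes were −0.16, 0.0018, −0.18 and −0.011 in pairs 1 to 4, where genes of like level had −0.04, −0.0053, −0.048 and −0.078. So the members were below genes of like level in pairs 1 and 3 and not in pairs 2 and 4. In all 4 pairs 18 of 70 members were lower and 1 was higher, against 13.3 and 11.4% of all genes. By complex, the medians were −0.077 for complex I, −0.061 for II, −0.066 for III, −0.13 for IV and −0.11 for V, a spread smaller than that between pairs. In the fit without the block, leaving out DMSO replicate 4 turned the median over all members to 0.031, and leaving out Ro replicate 4 took it to −0.22. The other 10 fits with a library or a whole pair left out gave −0.17 to −0.038.

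The members closest to a change in MOLM13 were small in effect, apart from low members. NDUFB10, an accessory subunit of complex I, had 79.6, 83.4, 97.0 and 140 CPM with DMSO and 63.8, 71.7, 82.3 and 124 CPM with Ro. It was lower in 4 of 4 pairs while the groups overlapped, at −0.22 ± 0.07 in the blocked fit (edgeR adjusted p = 0.107). ATP5D, a subunit of the central shaft of ATP synthase, went from 69.5, 55.9, 65.6 and 96.5 CPM to 58.4, 51.5, 55.3 and 85.1 CPM, at −0.18 ± 0.071 (adjusted p = 0.182), and COX5B from 147, 132, 153 and 210 CPM to 122, 119, 127 and 203 CPM, at −0.17 ± 0.069 (adjusted p = 0.212). NDUFB7, an accessory subunit of complex I, was likewise lower in each pair, at −0.16 ± 0.069 (adjusted p = 0.228). Both libraries of pair 4 were high for these 4 genes, so leaving out 1 of them unbalanced the fit without the block. With Ro replicate 4 and with DMSO replicate 4 left out, the log2 changes were −0.44 and −0.015 for NDUFB10 and −0.36 and −0.017 for ATP5D. They were −0.37 and −0.0071 for COX5B, and −0.26 and −0.068 for NDUFB7. Within pair 4 the 4 genes changed by −0.17, −0.18, −0.043 and −0.17, in that order. COX6A1, at 0.801 to 1.63 CPM, was the member with an unadjusted p below 0.05 without the block and had the lowest log2 change of all members, −0.61 ± 0.24 (edgeR adjusted p = 1) and −0.63 ± 0.27 with the block (adjusted p = 0.229). COX7B2, at 2.53 to 4.73 CPM, was also lower in each pair, at −0.26 ± 0.19. The 1 member on the other side was NDUFC1, at 2.46, 2.39, 2.28 and 1.2 CPM with DMSO and 2.71, 4.39, 3.34 and 1.3 CPM with Ro, a log2 change of 0.51 ± 0.2 (adjusted p = 0.193). Of the catalytic genes, ATP5A1 and ATP5B changed by −0.15 ± 0.22 and −0.13 ± 0.23 (SE) and SDHC by −0.16 ± 0.14 in the fit without the block. None of these passed over all genes. Without pair 4, the blocked fit called 2 members lower, NDUFB3 (−0.5 ± 0.11, edgeR adjusted p = 0.0138) and NDUFA4 (−0.36 ± 0.092, adjusted p = 0.0319).

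The same question was put to K562. None of 69 members tested passed (edgeR), and 0.0% of all 15227 genes tested did. In that fit 0 members had an unadjusted p below 0.05, and DESeq2 also called 0 members. In the blocked fit, 1 member was higher at an unadjusted p below 0.05 and 0 lower, where 0.847 and 1.27% of all genes were. The median log2 change was 0.062, with 50 of 69 above 0, and the median of genes of like level was 0.085, so that relative to them the members stood at −0.014. In all 4 pairs 10 of 69 members were higher and 0 lower, against 7.07 and 4.54% of all genes.

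In K562 the members moved together within a pair, and the sign differed between pairs. In pair 1, 65 of 69 were above 0 with a median of 0.31, and in pair 2, 16 of 69 with a median of −0.26. Pairs 3 and 4 had medians of 0.077 and 0.23. Genes of like level had 0.15, −0.035, 0.024 and 0.2 in pairs 1 to 4, so the members went further than they did in pairs 1 and 2. The subunits summed to 20146.2, 21095.6, 15271.9 and 16596.1 CPM with DMSO and to 25508, 18330, 16214.7 and 17386.1 CPM with Ro, ratios of 1.27, 0.869, 1.06 and 1.05. By complex, the median changes over the 4 pairs were 0.052 for I, 0.25 for II, 0.03 for III, 0.13 for IV and 0.12 for V. Cytosolic ribosomal protein genes moved in the same directions, with summed ratios of 1.24, 0.882, 1.01 and 1.07, and LOC100507412 took 6.44 and 3.73% of counts in the DMSO and Ro libraries of pair 1 and 2.89 and 4.74% in those of pair 2. Their part in the result was not tested. Without Ro replicate 1 the members' median was −0.075.

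NDUFB3, an accessory subunit of the membrane arm of complex I, was the member with the smallest p in K562. It had 49.1, 40.7, 48.3 and 24.7 CPM with DMSO and 85.0, 48.9, 60.4 and 43.3 CPM with Ro. It was higher in 4 of 4 pairs, by 0.81, 0.28, 0.31 and 0.81 on the log2 scale, while the groups overlapped; the blocked fit gave 0.55 ± 0.15 (edgeR adjusted p = 0.947). SDHB, at 121, 105, 106 and 79.4 CPM with DMSO and 137, 117, 118 and 116 CPM with Ro, was also higher in each pair, at 0.26 ± 0.14 (adjusted p = 0.947), as was ATP5C1 at 0.23 ± 0.13. With pairs 1 and 3 alone, which leaves out the 2 shallow DMSO libraries, the blocked fit called 5 members higher: NDUFB3 (0.54 ± 0.096, edgeR adjusted p = 7.3e-06), NDUFB6 (0.84 ± 0.12), COX7A2 (0.44 ± 0.12), UQCRHL (0.33 ± 0.094) and SDHC (0.32 ± 0.095). That fit called 3.06% of 13667 genes, in either direction, and 0 members lower. In pair 2, which that fit leaves out, 4 of the 5 went the other way: NDUFB6 by −1.45, UQCRHL by −0.84, COX7A2 by −0.81 and SDHC by −0.081. NDUFB3 was the member of the 5 that was higher in each pair.

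**Figure D5:**
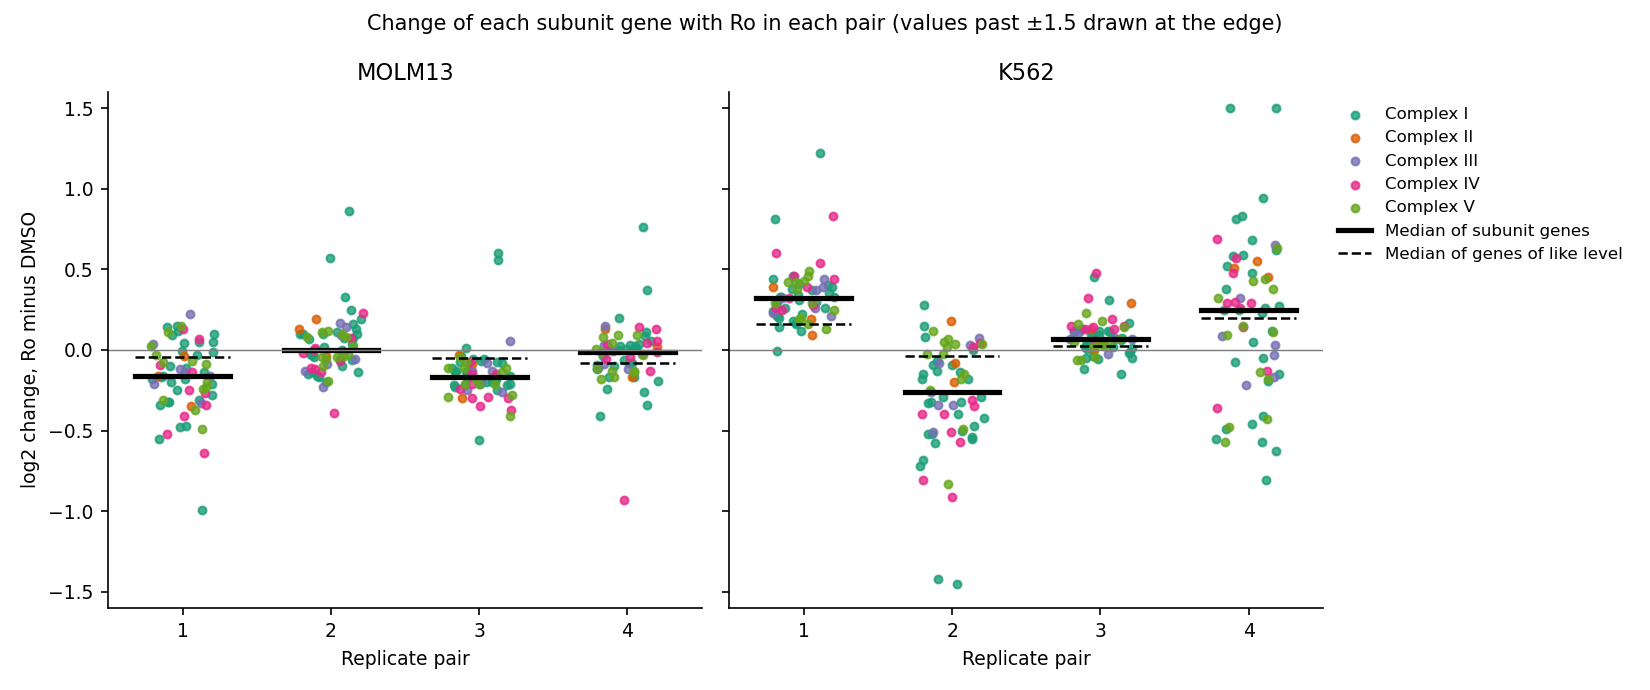
log2 change with Ro (y axis) of each subunit gene tested (points, coloured by complex) in pairs 1 to 4 (x axis) of MOLM13 and K562; the solid bar is the subunits' median and the dashed bar the median of genes of like level. NDUFA9 and NDUFB6 in K562 pair 4 lie past the axis. The K562 points sit above 0 in pair 1 and mostly below it in pair 2, and the MOLM13 points lie nearer 0.

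The difference between the lines in the change with Ro was tested itself. None of 70 members passed (edgeR), and 0.0% of all 16224 genes tested did. In that fit 1 member, higher, had an unadjusted p below 0.05, and DESeq2 also called 0 members. With the block, 5 members were higher in K562 at an unadjusted p below 0.05 and 0 lower, where 2.93 and 3.08% of all genes were. NDUFB3 came first, at a log2 difference of 0.85 ± 0.38 (edgeR adjusted p = 1) and of 0.85 ± 0.27 with the block (adjusted p = 0.766). In MOLM13 it had 58.8, 33.9, 64.0 and 41.9 CPM with DMSO and 29.4, 33.6, 42.3 and 54.2 CPM with Ro, lower in pairs 1 and 3, level in pair 2 and higher in pair 4. The other 4 were COX6A1, SDHC, NDUFA4 and ATP5C1. Of 70 members, 61 had a more positive change in K562, with a median of 0.16, and genes of like level had a median of 0.15, so the members did not stand apart from these.

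The genes that work beside the chain are given as lists fixed with earlier results of these data known. Of 5 subunits that the symbols do not catch, 2 were higher in K562 with DMSO and 0 lower. That is 40.0 and 0.0%, where 20.3 and 21.1% of all genes were. ATPIF1, the inhibitor of ATP synthase, stood at 158 ± 40 and 494 ± 107 CPM (log2 difference 1.64 ± 0.25, edgeR adjusted p = 0.00012). NDUFAB1, the acyl carrier protein of complex I, stood at 156 ± 20.1 and 323 ± 40 CPM (1.04 ± 0.2, adjusted p = 0.00106). CYC1, the cytochrome of complex III, C14orf2 and USMG5 differed by 0.44, 0.34 and 0.029 and did not pass. Of 44 assembly factors tested, 9 were higher and 5 lower, or 20.5 and 11.4%, where 20.3 and 21.1% of all genes were, so the share higher was that of the background. ATPAF1, which assembles the catalytic head of ATP synthase, differed most, at 4.64 ± 0.855 against 26.9 ± 3.63 CPM (2.52 ± 0.23, adjusted p = 1.1e-06), followed among the higher ones by FOXRED1, a complex I assembly factor (1.07 ± 0.26). The lower ones were SDHAF4, PET117, SCO1, COX10 and NDUFAF6, the middle 3 of which serve complex IV. CYCS, cytochrome c itself, stood at 705 ± 149 and 765 ± 332 CPM (adjusted p = 0.825). Of the 10 coenzyme Q genes, COQ4 was higher in K562 (1.69 ± 0.3), and PDSS2, ADCK3, COQ2 and COQ5 were lower, from −1.3 for PDSS2 to −0.91 for COQ5. With CYCS, the list of 11 had 9.09% higher and 36.4% lower, where 20.3 and 21.1% of all genes were. Of 12 transcription regulators, 0 were higher, and the coactivator genes PPRC1 (−0.92 ± 0.2, edgeR adjusted p = 0.00211) and PPARGC1B (−0.66 ± 0.23, adjusted p = 0.0341) were lower. The shares were 0.0 and 16.7%, both below the 20.3 and 21.1% of all genes. NRF1, GABPA and YY1, whose words were searched above, differed by 0.18, 0.049 and −0.46 with adjusted p of 0.608, 0.892 and 0.107.

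Protein synthesis genes are set beside these as the other large sets of mitochondria and cytosol. Mitochondrial ribosomal protein genes had 20 of 65 higher in K562 and 4 lower with DMSO (30.8 and 6.15%), with a median log2 difference of 0.28. Over all genes tested, 20.3 and 21.1% were. Cytosolic ribosomal protein genes had 1 of 74 higher and 51 lower (1.35 and 68.9%), with a median of −0.84. With Ro, 0 genes of any of these lists passed in either line (edgeR without the block), and 2 cytosolic ribosomal protein genes, lower in MOLM13, were the genes of these lists with an unadjusted p below 0.05. With the pair as a block in MOLM13, 2 mitochondrial ribosomal protein genes were called lower, or 3.08%, where 1.17% of all genes were: MRPL37 (−0.31 ± 0.074, edgeR adjusted p = 0.0317) and MRPL24 (−0.27 ± 0.072, adjusted p = 0.0487), named after their values were seen. At an unadjusted p below 0.05 in that fit, 21 of 65 mitochondrial and 38 of 74 cytosolic ribosomal protein genes were lower, beside 14 of 70 respiratory chain genes and 9.65% of all genes. In K562 the blocked fit called 0 genes of these lists, and 3 mitochondrial ribosomal protein genes were higher at an unadjusted p below 0.05. The medians with Ro in MOLM13 were −0.084 for assembly factors, −0.13 for mitochondrial and −0.13 for cytosolic ribosomal protein genes, beside −0.088 for the respiratory chain genes, and in K562 they were 0.076, 0.056 and 0.092 beside 0.062.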

How the data were processed

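The data were 16 QuantSeq 3' FWD libraries, 4 in each of 4 groups. The authors deposited raw counts per gene for all libraries in a single table. The submitters' processing notes name Trim Galore, STAR 2.5.3a, SAMtools 1.5 and hg38; the counting program and annotation are not given in the sources used here. Counts were tested as deposited with edgeR 4.0.16 (quasi-likelihood, TMM within each fit, at least 10 counts in at least 4 libraries, Benjamini-Hochberg over all genes tested, threshold 0.05) in R 4.3.3. DESeq2 1.42.0 was an alternative. Levels are CPM with TMM factors over the 16 libraries. Changes by pair are log2 differences of CPM with a prior count of 2 and the line's TMM factors. The scripts were tested on simulated data.

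The numbers in the titles pair the libraries within a line: deviations of same-numbered DMSO and Ro libraries correlated at 0.385 to 0.831 in MOLM13 and 0.109 to 0.416 in K562 over genes. The members, lists and naming rule (highest member of each complex, related genes, catalytic genes, smallest p by comparison) were chosen with earlier results of these data known; other names were added after their values were seen. The values of 1 subunit gene are not reported here singly. Gene names and promoters are from RefSeq (92 of 92 members matched). Many subunit genes have pseudogene copies, whose reads the counting could split. Library totals were 3143129 to 43571060 counts, so that 3 counts equal 0.067 to 0.872 CPM.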

Additional observations from a re-analysis of the deposited data

Results flagged for a closer look

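In groups of 4 libraries, the highest or lowest library was set against the other 3 by Dixon's criterion. It stood out in 26 of 166 groups of values, where chance alone gives about 1 in 20. Most of these were replicate 4 of MOLM13. In MOLM13 Ro, replicate 4 stood out in the summed levels of all 5 complexes: 3954.4 CPM in complex I (2662.5 to 2703.5 CPM in the others), 308 CPM in II (181 to 202), 1986.3 CPM in III (1515.8 to 1575.1), 3082.9 CPM in IV (2017.8 to 2144.2) and 5681.8 CPM in V (3938.9 to 4136.5). In the same library ATP5A1 stood at 342 CPM (181 to 205 in the others), ATP5G3 at 975 CPM (593 to 623), COX4I1 at 411 CPM (290 to 304), COX5B at 203 CPM (119 to 127), UQCRC2 at 104 CPM (72.1 to 74.2) and UQCRH at 663 CPM (536 to 542).

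Among catalytic genes, NDUFS1 had 106 CPM in replicate 4 with DMSO (65.6 to 72.5 CPM in the others) and 106 CPM with Ro (67.4 to 70.4 CPM). NDUFV1 had 113 CPM with DMSO (50.6 to 60.0 CPM) and 95.1 CPM with Ro (48.0 to 49.8 CPM). SDHA had 151 CPM with DMSO (61.4 to 68.8 CPM) and 134 CPM with Ro (60.2 to 66.5 CPM). ATP5G1 stood out with DMSO, at 409 CPM (221 to 236 CPM), and NDUFC1 stood out as the lowest, at 1.2 CPM (2.28 to 2.46 CPM).

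In K562 Ro, replicate 1 stood out in ATP5B at 528 CPM (364 to 372 CPM in the others), COX6A1 at 5.84 CPM (2.39 to 2.64 CPM), COX6C at 852 CPM (from 454 CPM upward), NDUFB10 at 240 CPM (131 to 143 CPM), SDHB at 137 CPM (116 to 118 CPM) and UQCRC1 at 94.2 CPM (65.5 to 69.0 CPM). In K562 DMSO, replicate 2 stood out in COX7A2L, at 195 CPM against 130 to 141 CPM. Members share a library, so these values are not independent of each other. The cause was not tested.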

How the results depend on the processing

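The count of members higher in K562 than in MOLM13 with DMSO was 27 and stayed between 22 and 31 with a replicate block (22 higher, 3 lower), DESeq2, DESeq2 with the block, DESeq2 size factors, no filter and, added after seeing the data, K562 DMSO replicates 1 and 3 alone. Replicate numbers do not pair libraries across the lines (mean correlation −0.0434 for the same and 0.0169 for different numbers). Leaving out 1 library gave 19 to 37 higher and 3 to 4 lower members; leaving out 1 number with the block gave 6 (without replicate 1), 12, 13 and 43 (without replicate 4) higher and 0 to 3 lower. In MOLM13 the paired fit with the replicate block called 0 members with Ro, and leaving out 1 pair in it called 0 to 2 lower: 1 without replicate 2 and 2 without replicate 4. The median change in MOLM13 ran from −0.22 to 0.031 when 1 library was left out, the latter without DMSO replicate 4. Both ends leave out 1 library of pair 4 in the fit without the block, so its high partner stays unmatched. The other 10 fits with a library or a whole pair left out gave −0.17 to −0.038. By pair the median was 0.0018 in pair 2 and −0.011 in pair 4, so its direction is not settled by these libraries. In K562, 5 members were called higher with pairs 1 and 3 alone, and the median ran from −0.075 to 0.2 over the leave-one-out fits, against an SD of 0.25 between pairs. For the 31 members called between the lines and the genes nearest a change with Ro, 493 alternative values kept direction and call, and 61, from 10 members called between the lines, lost the call. The replicate block ended the calls of 7 of them (UQCRB, COX5A, COX6A1, COX7B, ATP5C1, ATP5I and ATP5O, adjusted p from 0.0588 to 0.112) and added NDUFS7 (adjusted p = 0.0247). With Ro it changed no call among the members. The 493 and 61 values do not include the fits with the block and 1 number left out, or those on replicates 1 and 3 alone. Depth limits the genes under 3 counts: in the shallowest library that is 0.872 CPM, a limit of counting error only. The cause of these changes was not tested.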
